A study of Homo sapiens with 6 samples.

Results

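The germinal center and plasma cell genes examined here are BCL6, PRDM1, XBP1, MZB1 and IGJ, 5 of the 30017 genes in the count table, chosen by symbol for the question of whether late B cell programs are present in either state of a converting leukemia line. IGJ is the earlier symbol of JCHAIN, and all 5 genes were among the 14758 genes tested. The counts come from total RNA of BLaER subclone CTCF-AID cells, a B cell leukemia line that carries CEBPA, a myeloid transcription factor that can be switched on, and a CTCF protein fused to an auxin-inducible degron. Every library comes from this 1 subclone, so the CEBPA construct and the degron are shared by all groups. The 3 groups hold 2 biological replicates each. The 0 h cells had not been induced, the 96 h control cells had been converted toward induced macrophages (iMacs) with 17β-estradiol, IL-3 and CSF-1, and the 96 h CTCF-depleted cells had been converted in the same way with auxin (IAA) present to degrade CTCF. A line without the degron that received auxin is not among these libraries, so the effect of auxin and that of CTCF loss cannot be told apart.

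B cells that meet antigen can enter a germinal center, where BCL6 represses genes of terminal differentiation while cells divide and mutate their antibody genes. Exit to the plasma cell state requires the repressor PRDM1 (Blimp-1), which shuts down B cell genes, and XBP1, which expands the endoplasmic reticulum (ER) for antibody secretion. MZB1 is an ER protein that assists antibody assembly, and IGJ encodes the joining chain of polymeric antibodies. BCL6, PRDM1 and XBP1 also have roles outside the B lineage, macrophages among them.

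XBP1 mRNA is the substrate of the ER stress sensor IRE1, which cuts a short stretch from the cytoplasmic mRNA and thereby shifts the reading frame to give the active factor. The stretch is shown because gene counts pool both forms. It lies on chromosome 22 (hg38, minus strand), in coding exon 4 of 5 of the unspliced transcript in GENCODE release 44, and the 26 bases missing from the other annotated transcript, a length that is not a multiple of 3, are in capitals.
XBP1, chr22:28796108-28796173: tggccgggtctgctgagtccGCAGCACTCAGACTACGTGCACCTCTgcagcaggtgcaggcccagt
The placement of the capitals is that of the annotation. The first 6 letters of the capitals stand again just after them, so the gap can be drawn up to 6 bases further along without changing the product. How much of the XBP1 mRNA was in either form was not measured here.

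The promoter windows of the 5 genes (RefSeq, GRCh38.p14, 8 windows, from 250 bases before a start site) were searched on both strands for 2 motifs of the ER stress response, the response in which XBP1 acts. The ER stress element, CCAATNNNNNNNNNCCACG, is in 27 of 35116 windows of all genes (0.0769%), and the shorter site ACGTGG is in 3414 (9.72%). A match of either motif was present in 4 of the 8 windows, and those matches are shown in capitals with short flanks, written 5′ to 3′ on the strand of the gene.
XBP1 (minus strand), chr22:28800598-28800631: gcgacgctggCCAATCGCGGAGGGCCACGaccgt
MZB1 (minus strand), chr5:139390014-139390041: aggacaatgcCCACGTGGcatcttcggg
BCL6 (minus strand), chr3:187745513-187745538: tcctcccctgCCACGTagcagtggta
PRDM1 (plus strand), chr6:106086249-106086274: gtggtgttggCCACGTtggccacgcc
Only the XBP1 window among these held the ER stress element. The other 3 genes held the shorter site, which in MZB1 reads the same on both strands and was counted as 2 overlapping matches. These are matches of letters and were not tested for binding.

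The libraries held 9273470 to 12718780 counts. Replicates of a group differed by more than counting noise, with a chi-square of 1.71 to 2.69 per degree of freedom, so no library was treated as a duplicate. CTCF transcripts were at 231 and 214 CPM (counts scaled to a common library total) at 0 h, 181 and 174 CPM in control and 191 and 189 CPM in CTCF-depleted libraries, which says nothing of the protein that the degron removes. The paper calls the 0 h cells the B cell stage, and 14 of 14 B cell markers were read there. Their summed level was 4707 to 4761 CPM at 0 h, 457 to 459 CPM in control and 397 to 409 CPM in CTCF-depleted libraries. All 14 fell in both conversions. The 14 macrophage markers all rose in both, from a sum of 97.2 to 107 CPM to 6762 to 6997 CPM in control and 5982 to 6072 CPM in CTCF-depleted libraries. CD163 and FCGR1A were at 0 counts in both 0 h libraries. Of the T and NK cell list, CD3D and CD3G were at 0 in all libraries, and NKG7 and CD2 rose in both conversions, so that the sum of the list went from 2.68 to 2.93 CPM at 0 h to 38.2 to 38.7 CPM in control and 32.7 to 34.8 CPM in CTCF-depleted libraries. HBB, HBA1 and ALAS2 were at 0 in all libraries, and the sum of the fibroblast and erythroid list was at most 11.6 CPM. COL1A1, the 1 gene of that list tested, had 101 and 153 counts at 0 h, or 10.9 ± 0.748 CPM. It fell in both conversions, to 3.37 ± 0.844 CPM in control and 2.91 ± 0.0548 in CTCF-depleted cells. These markers moved together with the genes described next, and their part in the results was not tested. In bulk RNA, fewer cells of a type and less RNA per cell cannot be told apart.

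The 5 genes did not move as a block. In control cells PRDM1 and XBP1 rose, MZB1 and IGJ fell, and BCL6 stayed below the fold threshold. A gene was called when the adjusted p of the edgeR quasi-likelihood test was under 0.01 and the log2 fold change exceeded 0.6 in either direction. Across all genes tested, 25.4% were called higher and 22.9% lower in control against 0 h cells (48.3% in either direction), beside 2 higher and 2 lower of the 5 genes. At the adjusted p alone 68.2% of all genes passed, and 5 of the 5. In CTCF-depleted against 0 h cells the same 2 genes were called higher, against 27.2% of all genes, and the same 2 lower, against 25.2% (52.5% in either direction). The adjusted p alone was passed by 71.0% of all genes and by 4 of the 5. Between the 96 h states no member was called higher (5.41% of all genes) and MZB1 was called lower (7.03%, and 12.4% in either direction), while 4 of the 5 passed the adjusted p alone, as did 29.4% of all genes. The libraries did not overlap for 5 of 5 genes in each comparison, which was also so for 86.7%, 87.8% and 67.9% of all genes. Both conversions are measured against the same 0 h libraries, so their values are given side by side and not as independent evidence.

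**Figure D1:**
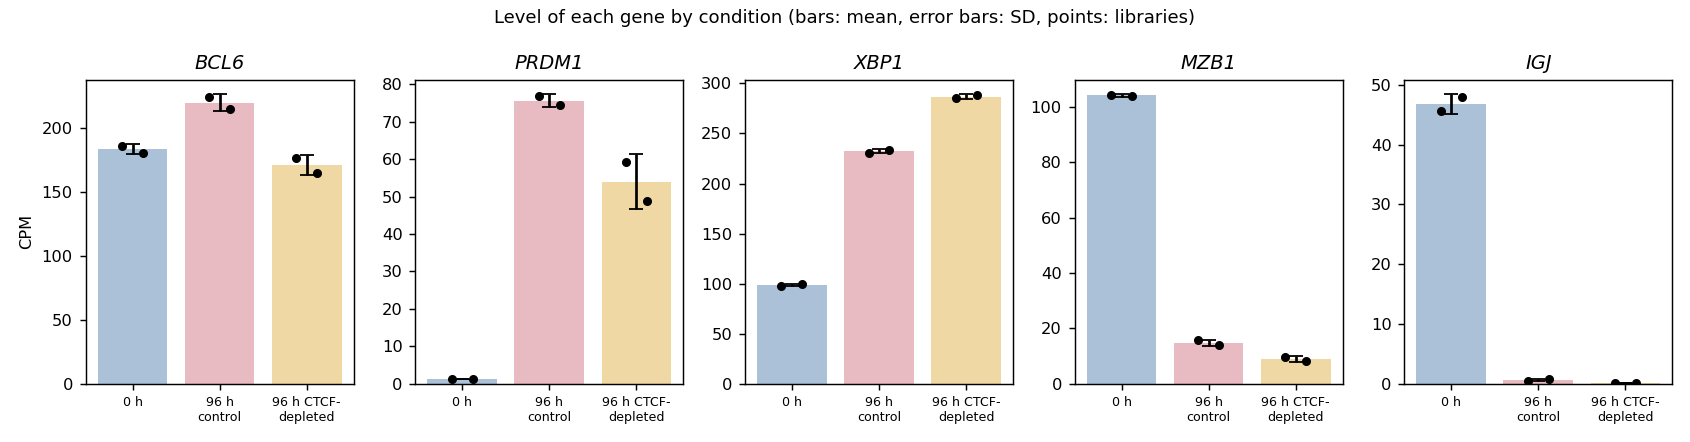
Level of BCL6, PRDM1, XBP1, MZB1 and IGJ in CPM (vertical axis, from 0, a scale of its own in each panel) at 0 h, in 96 h control and in 96 h CTCF-depleted cells. Bars are means of 2 libraries, error bars the SD and points the libraries. BCL6 stays between 165 and 225 CPM, PRDM1 and XBP1 are higher in all 4 libraries at 96 h, and MZB1 and IGJ are lower.

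BCL6 (chr3:187721377-187745725, minus strand) was read at 186 and 181 CPM in the 0 h libraries, 225 and 215 CPM in control and 177 and 165 CPM in CTCF-depleted libraries. The control libraries were the highest and the CTCF-depleted ones the lowest, with no overlap, yet the whole range of the 6 libraries was narrow. The mean was 184 ± 3.83 CPM (SD, n = 2) at 0 h, 220.0 ± 6.64 in control and 171 ± 8.0 in CTCF-depleted cells. The log2 fold change in control against 0 h cells was 0.26 (SE 0.05, adjusted p = 6.36e-06), which is 1.20-fold with a 95% interval of 1.12 to 1.29, and in CTCF-depleted against 0 h cells it was -0.10 (SE 0.05, adjusted p = 0.0659). In CTCF-depleted against control cells it was -0.36 (SE 0.05, adjusted p = 2.91e-08). BCL6 therefore passed the adjusted p in the first and last of these comparisons and the fold threshold in none. Without control replicate 1 the adjusted p in control against 0 h cells was 0.0104. Exons of BCL6 overlap 2 unnamed genes on the plus strand, 1 of them a lncRNA, and since the strand setting of the counting is not stated, reads of these genes cannot be told apart.

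BCL6 acts through corepressors that it recruits to DNA. Of 10 corepressor and partner genes listed, 2 were called higher in control cells, 3 were called higher in CTCF-depleted cells and none was called lower in either. Beside this count, and those of the lists that follow, stand 48.3% of all genes called in control against 0 h cells, 52.5% in CTCF-depleted against 0 h cells and 12.4% between the 96 h states. HDAC4, a class IIa histone deacetylase, went from 49.0 ± 1.99 CPM at 0 h to 192 ± 1.56 in control and 199 ± 10.3 in CTCF-depleted cells (log2 fold change 1.98 and 2.02, adjusted p = 1.41e-35 and 3.88e-36). BCOR, the BCL6 corepressor that lends it a Polycomb link, rose by 1.21 and 0.71 on the log2 scale. At the adjusted p alone, which 68.2% and 71.0% of all genes passed, the 10 moved both ways. In control cells 6 were higher and 2 lower, and in CTCF-depleted cells 5 were higher and 3 lower. None of the 10 was called between the 96 h states. There the adjusted p alone was passed by 4 of the 10, all lower with CTCF depletion, beside 29.4% of all genes. BCOR was 1 of these, at -0.50.

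Genes that BCL6 is known to repress were split in direction. Of 16 listed, 14 were tested, and 6 rose and 3 fell in control cells, while 8 rose and 3 fell in CTCF-depleted cells. The genes that rose included PRDM1 itself and ID2, an inhibitor of helix-loop-helix factors, which went from 3.16 ± 0.644 CPM to 153 ± 5.98 in control and 181 ± 6.46 in CTCF-depleted cells. The cell cycle inhibitor CDKN1A rose from 112 ± 10.8 CPM to 320.4 ± 7.77 in control and 189.6 ± 3.95 in CTCF-depleted cells. The chemokine CCL3 and the cyclin CCND2 were at 3 and 0 and at 1 and 1 counts at 0 h and at 89 to 104 and 58 to 60 counts in control cells. IRF4, BCL2 and CHEK1 fell in both conversions. IRF4 is on this list and on that of plasma cell genes. Of the 14, between the 96 h states, 3 were higher with CTCF depletion, namely CCL3 (0.91, adjusted p = 8.10e-06), CCND2 (0.75, adjusted p = 0.00247) and the activation marker CD69 (2.54, adjusted p = 0.000411), and CDKN1A (-0.76) and CHEK1 (-0.60) were lower. CD69 was near the detection limit in control libraries, with 4 and 3 counts there and 26 and 15 in CTCF-depleted libraries. The median of the list was 0.33, 0.69 and -0.06 in the 3 comparisons, against 0.02, 0.02 and -0.03 over all genes tested.

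PRDM1 (chr6:105993463-106109939, plus strand) showed the largest rise of the 5 genes. It had 13 and 18 counts in the 0 h libraries, 871 and 804 in control and 639 and 530 in CTCF-depleted libraries, or 1.34 and 1.35 CPM, 76.9 and 74.5 CPM, and 59.2 and 48.8 CPM. The 4 libraries at 96 h were all far above the 0 h libraries, and the control libraries were above the CTCF-depleted ones. The rise was 55.8-fold (95% interval 45.4 to 68.5) in control cells, a log2 fold change of 5.80 (SE 0.15, adjusted p = 4.49e-40), and 39.8-fold (32.0 to 49.4) in CTCF-depleted cells, a log2 fold change of 5.31 (SE 0.16, adjusted p = 5.33e-37). Both SEs and intervals were derived from the F statistic. They are too narrow, since counting error at 13 and 18 counts is already wider. The difference between the 96 h states was -0.49 (SE 0.08, adjusted p = 6.41e-07), 1.40 times lower with CTCF depletion, and was under the fold threshold. It was -0.32 without CTCF-depleted replicate 2 and -0.59 without CTCF-depleted replicate 1, the ends of the range when each library was left out.

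PRDM1 is known to repress genes of B cell identity and of the germinal center. Of 8 such genes, 7 were tested. In control cells PAX5, MYC and CD22 fell and CIITA and SPIB rose, and BCL6 and ID3 were not called. PAX5, the factor that maintains B cell identity, went from 794 ± 1.24 CPM at 0 h to 91.1 ± 2.78 in control and 85.1 ± 3.15 in CTCF-depleted cells, falls of 8.72 and 9.33 times. MYC fell by 2.12 and by 1.64 on the log2 scale. CIITA, the transactivator of MHC class II genes, rose by 1.03 and 0.80, and SPIB, an ETS factor, rose by 1.50 and 1.09, also in both conversions. In CTCF-depleted cells ID3 fell as well. With CTCF depletion CD22, an inhibitory receptor of B cells, was higher than in control cells, at 34.8 ± 3.29 CPM in control and 96.6 ± 1.85 in CTCF-depleted cells (log2 fold change 1.47, adjusted p = 3.04e-24), while ID3 was lower, at 70.4 ± 4.51 and 35.1 ± 6.14 CPM (-1.01, adjusted p = 1.91e-14).

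Of 9 relatives of PRDM1 listed, 6 were tested, and 2 were called in control against 0 h cells, beside 48.3% of all genes. PRDM8 rose in both conversions, from 2.05 ± 0.278 CPM to 50.2 ± 4.17 in control and 40.5 ± 1.19 in CTCF-depleted cells, with log2 fold changes of 4.58 and 4.28, and PRDM11 fell in control cells by 0.76. ZNF683 (Hobit), the nearest relative of PRDM1, was at 0 counts in all 6 libraries. For BCL6, 4 of 7 relatives were tested, and 2 of them, ZBTB7A and ZBTB46, rose in both conversions. None of these relatives was called between the 96 h states.

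XBP1 (chr22:28794555-28800597, minus strand) was already read at 97.7 and 99.4 CPM in the 0 h libraries. It was at 231 and 233 CPM in control and at 285 and 289 CPM in CTCF-depleted libraries. The 3 groups were ordered without overlap, with the CTCF-depleted libraries highest. The rise was 2.35-fold (95% interval 2.19 to 2.53) in control cells, a log2 fold change of 1.23 (SE 0.05, adjusted p = 1.73e-29), and 2.91-fold in CTCF-depleted cells, 1.54 on the log2 scale (SE 0.05, 95% interval 1.44 to 1.64, adjusted p = 1.94e-34). XBP1 was the member with a higher level under CTCF depletion than in control cells, by 0.31 (SE 0.05, adjusted p = 2.95e-07), 1.24-fold, which was under the fold threshold.

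The regulators around XBP1 moved in both directions. Of 11 regulators of the unfolded protein response, 4 rose and 4 fell in each conversion. ERN1, which encodes IRE1, the enzyme that splices XBP1, had 79 and 117 counts at 0 h, 450 and 467 in control and 733 and 706 in CTCF-depleted libraries. These are 8.46 ± 0.443 CPM, 41.5 ± 2.50 CPM and 66.5 ± 2.00 CPM, so that ERN1 had the same order of groups as XBP1. It rose by 2.28 and 2.96 on the log2 scale and was the 1 regulator called between the 96 h states, with 0.68 (SE 0.08, adjusted p = 7.57e-11). ATF6 and ATF6B, the membrane-bound factors of a second branch, rose in both conversions, by 0.77 and 0.82 in control cells. EIF2AK3 (PERK) and ATF4, the kinase and the factor of the remaining branch, fell in both, and so did RTCB, the ligase that joins the cut XBP1 mRNA, from 72.7 ± 2.18 CPM to 46.4 ± 1.23 and 39.4 ± 1.12. The stress response gene DDIT3 (CHOP), the last of the 4 that rose, went up by 1.30 and 1.14 on the log2 scale, so this branch did not fall throughout.

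The ER genes that serve secretion moved in both directions as well. Of 26 chaperones, translocon and quality control genes, all were tested, and 5 rose and 5 fell in control cells, 5 rose and 4 fell in CTCF-depleted cells and none was called between the 96 h states (4 passed the adjusted p alone). Their median log2 fold change was 0.0046, 0.03 and 0.01. DNAJC3, SEL1L and SPCS3 rose in both conversions, by 0.84, 0.66 and 0.63 in control cells. SEC24D, a coat protein of vesicles leaving the ER, went from 34.5 ± 1.33 CPM to 55.8 ± 1.13 in control and 78.4 ± 1.68 in CTCF-depleted cells. EDEM1, which sends misfolded glycoproteins to degradation, fell most, from 1573 ± 9.26 CPM at 0 h to 413 ± 4.80 in control and 409 ± 10.6 in CTCF-depleted cells. PDIA6 and SYVN1 fell in both conversions too. The chaperones HSPA5 (BiP) and HSP90B1 were not called, with 0.27 and 0.12 in control cells. HSPA5 passed the adjusted p alone in both conversions (1.83e-06 and 2.36e-08), and HSP90B1 in neither. DNAJB9, a textbook target of spliced XBP1, was at 9.15 ± 1.80 CPM at 0 h, 8.95 ± 0.305 in control libraries and 12.6 ± 0.150 with CTCF depleted. It was not called in any comparison, but passed the adjusted p alone in CTCF-depleted against 0 h cells (0.48, adjusted p = 0.00626).

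**Figure D2:**
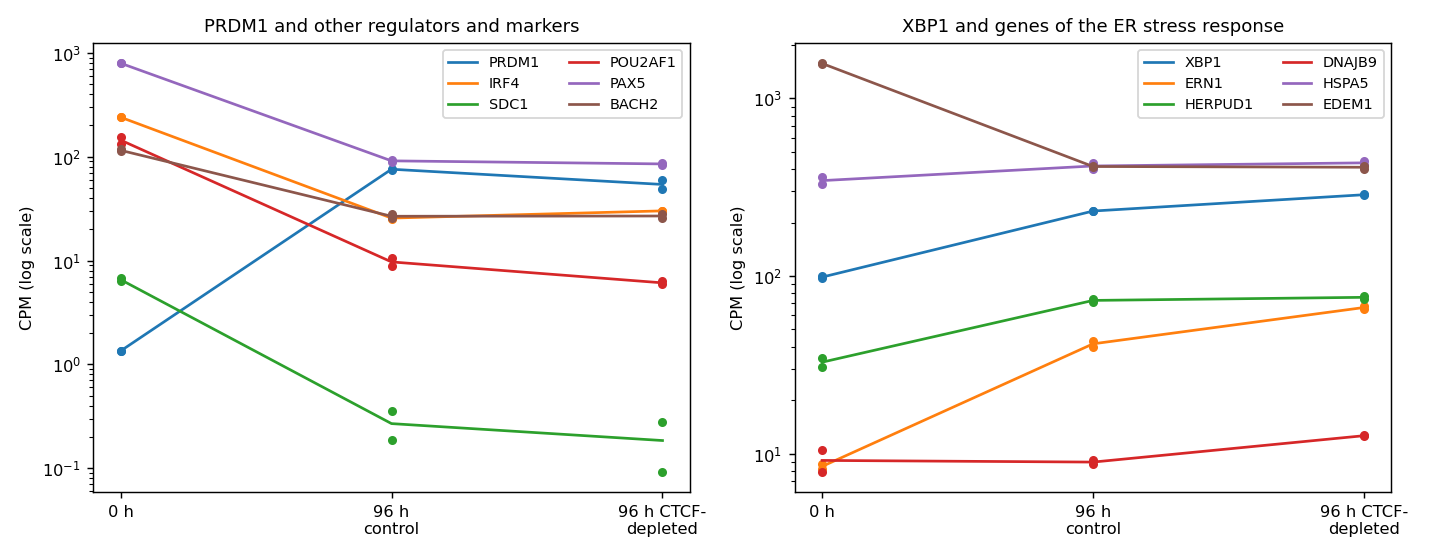
Levels in CPM on a log scale (vertical axis) at 0 h, in 96 h control and in 96 h CTCF-depleted cells, with points for libraries and lines through the means of 2. On the left PRDM1 rises where IRF4, SDC1, POU2AF1, PAX5 and BACH2 fall, and on the right XBP1 and ERN1 rise in the same order of groups while EDEM1 falls from 1573 to 413 and 409 CPM.

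MZB1 (chr5:139387467-139390081, minus strand) was high at 0 h, with 104 CPM in both libraries. It was at 15.6 and 14.1 CPM in control and at 9.63 and 8.20 CPM in CTCF-depleted libraries. All 4 libraries at 96 h were far below the 0 h libraries, and the CTCF-depleted ones were the lowest. MZB1 fell by 2.81 on the log2 scale in control cells (SE 0.09, adjusted p = 1.44e-35), 7.0 times lower, and by 3.54 in CTCF-depleted cells (SE 0.10, adjusted p = 1.48e-38), 11.7 times lower. It was the 1 member called between the 96 h states, at -0.74 (SE 0.13, 95% interval -1.0 to -0.48, adjusted p = 4.50e-06), 1.67 times lower with CTCF depletion. That call rests on counts of 177 and 152 against 104 and 89. Without CTCF-depleted replicate 2 the log2 fold change was -0.60 (adjusted p = 0.00123) and the fold threshold was no longer passed, and over all alternatives it lay between -0.82 and -0.60.

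IGJ (chr4:70655541-70681817, minus strand) went from clear expression to the detection limit. The study read this transcript by RT–qPCR too, and its primers are shown with the exons of the canonical transcript that they match. The forward primer spans the junction of exons 1 and 2, the reverse primer lies in exon 2, and the product is 133 bases long.
IGJ forward: tgttcatgtgaaagcccaag
IGJ reverse: tcggatgtttctctccacaa
In the RNA-seq, IGJ had 442 and 639 counts at 0 h, 5 and 8 in control and 1 and 1 in CTCF-depleted libraries. The levels were 45.6 and 47.9 CPM, 0.441 and 0.741 CPM, and 0.0926 and 0.0921 CPM. Both 0 h libraries were far above all libraries at 96 h, and the CTCF-depleted libraries, at 1 count each, were the lowest. From summed counts scaled by library size, IGJ was 79.9 times lower in control than in 0 h cells (13 against 1081 counts, exact 95% interval 46.5 to 151), and 508 times lower in CTCF-depleted cells (2 against 1081, 140.4 to 4202). These intervals cover counting error only. The edgeR log2 fold changes were -6.29 (SE 0.21, adjusted p = 1.84e-34) and -8.82 (SE 0.28, adjusted p = 2.26e-35). The second depends on the prior count of the fit. Both SEs were derived from the F statistic and understate the error, since the exact intervals are wider. Compared with control cells the ratio was 6.36 times lower with CTCF depletion (2 against 13 counts, 1.44 to 58.1) and the adjusted p was 0.0109, which did not pass 0.01. It lay between 0.0109 and 0.132 over the alternatives. IGJ overlaps a lncRNA on the plus strand, whose reads cannot be told apart if the counting ignored strand.

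IGJ joins antibodies, so its partners would be of interest. Of 16 immunoglobulin constant region and transport genes listed, 2 are analyzed here, IGLL5 and PIGR, while IGHM, IGKC and the others are not analyzed here. IGLL5, a gene related to the light chain, had 1153 and 1396 counts at 0 h, 33 and 32 in control and 4 and 8 in CTCF-depleted libraries. It fell by 5.24 and by 7.62 on the log2 scale and was lower with CTCF depletion than in control cells by 2.38 (adjusted p = 2.42e-07). PIGR, the epithelial receptor for polymeric antibodies, had at most 1 count in a library.

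**Figure D3:**
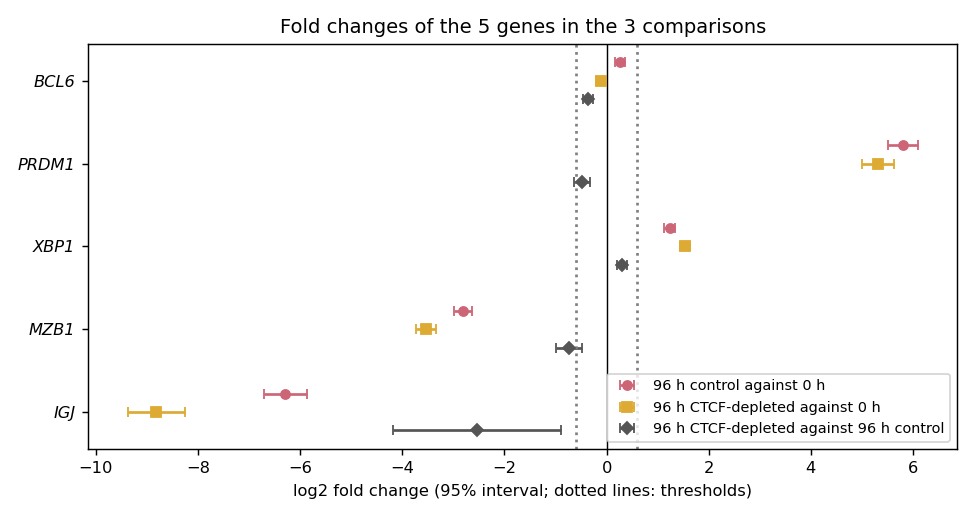
Log2 fold change (horizontal axis) of the 5 genes (vertical axis) in control against 0 h, CTCF-depleted against 0 h and CTCF-depleted against control cells, with 95% intervals from the edgeR fit and dotted lines at the fold thresholds of 0.6. The intervals are too narrow where a group has few counts, as IGJ has at 96 h and PRDM1 at 0 h. Both conversions give the same direction for PRDM1, XBP1, MZB1 and IGJ, and between the 96 h states MZB1 is at -0.74 and IGJ, at few counts, has the widest interval.

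Levels of different genes were compared as CPM per kilobase of the canonical transcript. At 0 h the order was MZB1 (113 CPM per kb), BCL6 (55.6), XBP1 (55.0), IGJ (36.4) and PRDM1 (0.261). BCL6 and XBP1 did not differ beyond the spread of their libraries. In control cells it was XBP1 (129.6), BCL6 (66.5), MZB1 (16.1), PRDM1 (14.7) and IGJ (0.460). In CTCF-depleted cells it was XBP1 (160.1), BCL6 (51.7), PRDM1 (10.5 ± 1.42), MZB1 (9.64 ± 1.09) and IGJ (0.0718), with the libraries of PRDM1 and MZB1 overlapping. XBP1 thus had the highest level of the 5 at 96 h and MZB1 at 0 h. Among the 12518 tested genes with a transcript length (84.8%), PRDM1 went from the 7.31st percentile at 0 h to the 62.7th in control and the 53.4th in CTCF-depleted cells, and IGJ from the 86.8th to the 8.03rd and the 1.99th. With the union of all annotated exons as the length, a choice made after seeing the data, the order at 0 h was MZB1 (45.5), XBP1 (32.5), BCL6 (30.9), IGJ (30.2) and PRDM1 (0.199), so that MZB1 was less far above the others. With the same length PRDM1 was above MZB1 in control cells (11.2 against 6.50) and in CTCF-depleted cells (8.0 against 3.90).

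Several germinal center genes were at or near the detection limit in all 3 states. Of 15 germinal center genes other than BCL6, 9 were tested, and the other 6 were below the filter on low counts. RGS13 and SERPINA9 had at most 1 count in a library. Of the 9 tested, 1 rose and 6 fell in each conversion, with a median log2 fold change of -1.09 in control and -2.10 in CTCF-depleted cells against 0.02 over all genes in both. GCSAM, a signaling adaptor of germinal center B cells, went from 186 and 252 counts at 0 h to 2 and 0 in control and 0 and 2 in CTCF-depleted libraries. MME (CD10), a marker of germinal center and of precursor B cells, had 38 and 51 counts at 0 h, 1 and 2 in control and 5 and 6 in CTCF-depleted libraries. BACH2, a repressor that delays plasma cell fate, fell from 115 ± 3.08 CPM to 26.7 ± 1.71 in control and to 26.8 ± 1.60 in CTCF-depleted cells. BCL7A fell by 1.71 and by 2.20 on the log2 scale. KLHL6, an adaptor needed for germinal centers, was the 1 gene that rose, by 1.05 and 1.51. MYBL1 was not called, at 4.75 ± 0.140, 4.91 ± 0.919 and 3.78 ± 1.29 CPM. CD83 was called between the 96 h states, with 10.2 ± 1.18 CPM in control and 4.20 ± 0.311 in CTCF-depleted cells (-1.27, adjusted p = 3.42e-07).

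Plasma cell genes moved in both directions. Of 20 listed besides the members, 16 were tested, and 3 rose and 7 fell in control cells, while 4 rose and 7 fell in CTCF-depleted cells. The median log2 fold change was -0.41 and -0.28. IRF4, the factor that acts with PRDM1 in plasma cells, fell from 239.8 ± 1.55 CPM at 0 h to 25.6 ± 0.471 in control and 30.1 ± 0.348 in CTCF-depleted cells (log2 fold change -3.23 and -2.99, adjusted p = 4.02e-43 and 5.91e-42). SDC1 (CD138), the surface marker of plasma cells, had 66 and 84 counts at 0 h, 4 and 2 in control and 3 and 1 in CTCF-depleted libraries, 24.0 times lower (10.8 to 66.5) and 35.3 times lower (13.5 to 131). POU2AF1, a coactivator of antibody genes, fell from 144 ± 15.6 CPM to 9.69 ± 1.27 and 6.10 ± 0.283, and CD38 fell in both conversions, by 1.47 and by 1.19. TNFRSF17 (BCMA), a survival receptor of plasma cells, had at most 2 counts in a library, and so did SLAMF7. The genes that rose in both were the elongation factor ELL2, from 6.01 ± 1.36 CPM to 65.5 ± 0.119 and 67.6 ± 0.409, its partner EAF2 (1.51 and 1.53) and HERPUD1, a gene of ER-associated degradation (1.15 and 1.21). POU2AF1 was called lower between the 96 h states (-0.67, adjusted p = 0.000533), a call that was lost without control replicate 1 and without CTCF-depleted replicate 2, and no gene of this list was called higher.

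**Figure D4:**
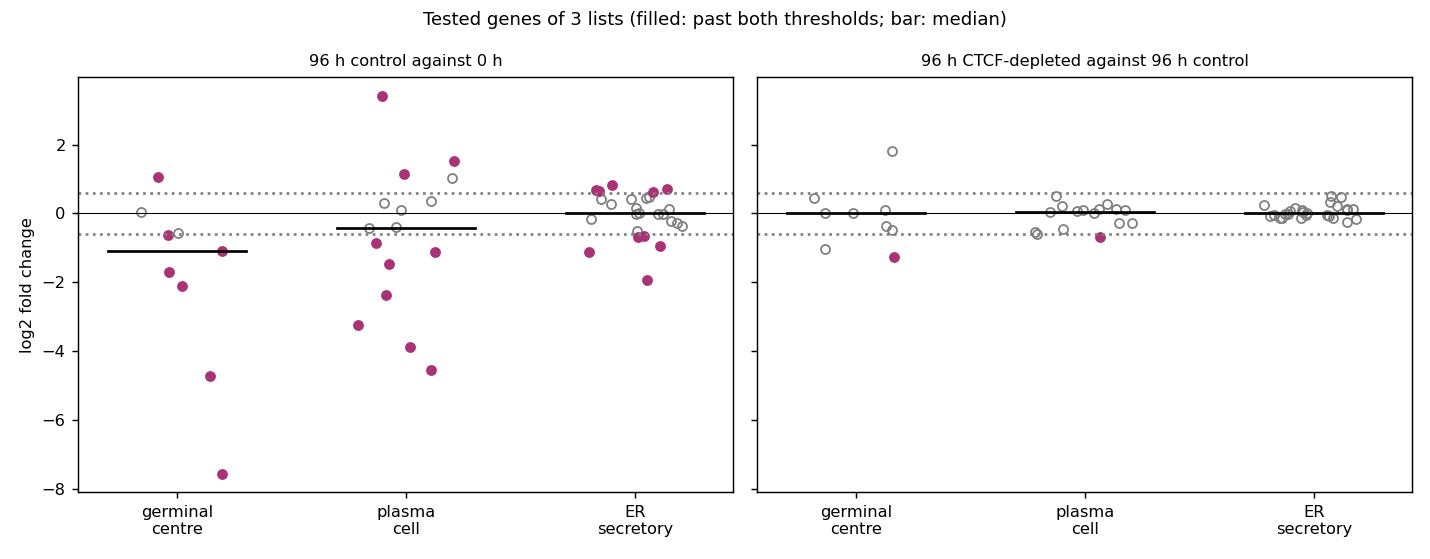
Log2 fold change (vertical axis) of the tested genes of the germinal center list (9), the plasma cell list (16) and the ER secretory list (26), in control against 0 h cells on the left and in CTCF-depleted against control cells on the right. Points are genes, filled where both thresholds are passed, bars are medians and dotted lines the fold thresholds. Between the 96 h states 1, 1 and 0 genes are filled.

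The genes whose level followed that of each member most closely over the 6 libraries were found by the root mean square difference of centered log2 CPM. For PRDM1 they were ALOX5 (0.0766), NDRG1 (0.0911) and RASSF4 (0.106). ALOX5, the 5-lipoxygenase of myeloid cells, had 24 and 31 counts at 0 h, 1388 and 1327 in control and 1055 and 992 in CTCF-depleted libraries, the order of groups seen for PRDM1. For XBP1 they were HERC3 (0.0245), RASAL3 (0.0274) and STK38L (0.0284), and for BCL6 they included SLC29A3 (0.0305) and GNB4 (0.0325). For MZB1 they were BAIAP2L1 (0.0734), CHRNA5 (0.109) and TANC1 (0.114). For IGJ they were FHOD3 (0.164), APBA1 (0.193) and LTBP1 (0.314), and FHOD3 had 3 and 3 counts in control and 0 and 0 in CTCF-depleted libraries.

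CTCF is known to organize contacts along chromosomes, so the tested genes within 250 kb of each member were described as well. Tested genes whose symbol could not be placed in the annotation are left out. BCL6 had 0 such neighbors, PRDM1 had 1, XBP1 5, MZB1 9 and IGJ 4. In control against 0 h cells 4 of the 9 neighbors of MZB1 were called, near the 48.3% of all genes, and they moved both ways. PROB1 and SLC23A1, on either side of MZB1, fell by 2.43 and by 2.57 on the log2 scale. SNHG4 fell by 1.32, and SIL1 rose by 0.84. In the same comparison 2 of 5 neighbors of XBP1 and 1 of 4 neighbors of IGJ were called. The 1 neighbor called between the 96 h states, where 12.4% of all genes were called, was RUFY3, near IGJ, at -0.82 (adjusted p = 4.22e-13).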

How the data were processed

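Total RNA was depleted of rRNA and sequenced by the authors from 6 libraries, 2 biological replicates for each of 3 conditions. The values are raw counts per gene as deposited by the authors, who used nf-core/rnaseq, STAR 2.6.1d against hg38 and featureCounts 2.0.6 over protein-coding exons, although noncoding genes such as SNHG4 are among those tested here. The annotation release and the strand setting are not given in the sources used here. Totals of 9273470 to 12718780 counts set the precision, and reads carry no molecular identifiers.

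Counts were fitted in R 4.3.3 with edgeR 4.0.16 (filterByExpr, TMM, quasi-likelihood test, all 6 libraries, condition as the only term), with Benjamini-Hochberg adjustment over the 14758 genes. Standard errors and intervals were computed from the F statistic, and they are too narrow where a group has few counts. Levels are CPM scaled by TMM library sizes. Log2 CPM used a prior count of 2, and the edgeR fold changes used the default prior count of the fit instead. Recovery of known changes was checked on simulated counts. Alternatives were DESeq2 1.42.0, RLE scaling, no low-count filter, a minimum of 10 counts per library, a fit of 4 libraries per comparison, a block for the replicate number, no fold threshold and each library left out. Exact permutation over 2 against 2 libraries cannot go below p = 0.333 and was not used. Summaries used Python 3.11.15 with pandas 2.3.3, scipy 1.17.1 and matplotlib 3.10.9. Positions and lengths come from GENCODE release 44 and promoters from RefSeq.

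The genes and the lists were chosen with earlier results of these data known. All members were named, and in each list the 3 genes with the smallest adjusted p per direction and comparison whose libraries did not overlap, besides a fixed set of markers. For each member the 3 genes with the smallest difference in centered log2 CPM were named as most alike. RGS13, SERPINA9, ZNF683, PIGR, DDIT3, CD69 counts and the neighbors of MZB1 and IGJ were given after their values were seen. Some genes that this rule names are not reported here.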

Additional observations from a re-analysis of the deposited data

Results flagged for a closer look

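MZB1 fell in both conversions, and the size of the fall differed between them. The difference was tested directly as CTCF-depleted against control cells and was -0.74 on the log2 scale, with an adjusted p of 4.50e-06 by the edgeR quasi-likelihood test. Both CTCF-depleted libraries were below both control libraries. With 2 libraries in each group no group could be searched for a single outlying library.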

How the results depend on the processing

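No member changed direction under any alternative. DESeq2, RLE scaling, no low-count filter, the fit of only the 4 libraries compared and the replicate block changed no member's call. With the replicate block MZB1 in CTCF-depleted against control cells remained called and all genes gave 785 higher and 1033 lower calls (798 and 1038 without it). Replicate numbers share only a number (correlations of -0.0194, 0.0109 and -0.0294), so the block was not the main fit. Leaving out 1 library, where the lone library left is assumed to vary like the others, gave for CTCF-depleted against control cells 0 to 1 members called lower, 0 to 1 plasma cell genes called lower, 0 to 1 called higher and -0.82 to -0.60 for MZB1. At least 10 counts in every library removed IGJ, leaving 1 member and 3 germinal center genes called lower in each conversion. IGJ also had too few counts for the fit of only the control and CTCF-depleted libraries.

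Without a fold threshold 11 ER secretory genes were higher and 9 lower in each conversion, and BCL6 in control against 0 h cells (0.26) was called. Between the 96 h states this gave 1772 genes higher and 2569 lower, 1 member higher (XBP1, 0.31) and 3 lower (MZB1, BCL6, -0.36, and PRDM1, -0.49), 1 germinal center gene higher and 2 lower, 1 plasma cell gene higher and 1 lower, and 3 ER secretory genes higher and 1 lower. Scaling by RLE or DESeq2 moved the median of all genes by at most 0.014. The depth limits IGJ most, at 1 count in each CTCF-depleted library.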
